A study of Gallus gallus with 4 samples.

Results

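GGLTR7 is a group of chicken long terminal repeat (LTR) elements that the transposable element (TE) tables of this study list in 3 rows: GGLTR7A and GGLTR7B, named for LTRs, and GGLTR7-int, named for the internal part that lies between LTRs. The rows were chosen by name alone, as every row whose name starts with GGLTR7, and they are 3 of 241 TE rows and of 24689 rows in all tables. An LTR retrotransposon carries the same repeat at both ends, where its transcription starts and stops, and an internal region with its coding sequence. Many copies in a genome are lone LTRs, left when the repeats recombined and the internal part was lost. PIWI-interacting RNAs (piRNAs) are small RNAs that guide PIWI proteins to TE transcripts. They carry a 2′-O-methyl group on the ribose of their last nucleotide, and antisense piRNAs can pair with the element's own RNA, whereas sense piRNAs have the sequence of that RNA.

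The midbrain region of chick (Gallus gallus) heads was the source of the RNA, which was selected for 19 to about 38 nucleotides. All embryos were wild type, had been incubated for about 30 h at 37 °C and were at stage HH9- of the Hamburger-Hamilton series. The 2 oxidized libraries were treated with sodium periodate, which makes RNA without the 2′-O-methyl group unfit for cloning. The 2 total libraries were not treated, and the series describes each sample as split between these treatments. The comparison asks which small RNAs withstand oxidation. The oxidized libraries held 10981001 (replicate 1) and 14081954 (replicate 2) assigned reads, and the total libraries 17962725 (replicate 1) and 14946049 (replicate 2). Levels are given as counts per 1000000 assigned reads (CPM), with the sum of all 6 tables of a library as the denominator. They are not divided by the length or the number of copies of an element. The labels do not state whether replicates were separate pools of embryos. The p-values below therefore reflect only how much these libraries vary, and that variation may be technical.

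The GGLTR7 rows were rare in the total libraries and rose after oxidation as a share of assigned reads, GGLTR7B the most. Their summed reads were 265 (replicate 1) and 386 (replicate 2) in the total libraries, against 11503 and 23243 after oxidation. As a share of assigned reads this was 0.00203% ± 0.000783 in the total and 0.135% ± 0.0426 in the oxidized libraries (mean ± SD, n = 2 each), 66.5-fold more. Among reads other than miRNA the summed share was 19.4-fold higher after oxidation (0.137% ± 0.0434 against 0.00708% ± 0.00146). For each of these shares an exact two-sided permutation test of 2 libraries against 2 gave p = 0.333, which is the smallest p this design allows. Of TE reads alone, GGLTR7 made up 0.170% and 0.255% in the total libraries and 0.216% and 0.358% in the oxidized libraries, and these ranges overlapped (exact permutation p = 0.667). Replicate 2 was above replicate 1 in both groups, and within each replicate number the share was higher after oxidation. In bulk tissue like this, a low level in many cells and a higher level in few cells cannot be told apart.

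For GGLTR7B the total libraries gave 98 reads (replicate 1) and 117 reads (replicate 2), and the oxidized libraries 6656 and 12623. These counts were 5.46 and 7.83 CPM before and 606 and 896 CPM after oxidation, with oxidized replicate 2 above oxidized replicate 1. The mean went from 6.64 ± 1.68 to 751 ± 205 CPM, 113-fold higher, with a log2 fold change of 6.82 (SE 0.46; adjusted p = 0.0030 by edgeR's quasi-likelihood test). Single oxidized libraries stood 77.4- to 164-fold above single total libraries. By log2 fold change GGLTR7B was number 2 of the 105 TE rows tested. Its share of TE reads was 0.0629% and 0.0773% before and 0.125% and 0.194% after oxidation. These ranges did not overlap, but other TE rows also rose without overlap on this measure. Their number was not counted, so this does not set GGLTR7B apart.

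GGLTR7A, the other LTR row, went from 86 and 126 reads to 3315 and 5887. In CPM these were 4.79 and 8.43 against 302 and 418. The mean went from 6.61 ± 2.58 to 360.0 ± 82.1 CPM, 54.5-fold higher, with a log2 fold change of 5.77 (SE 0.52; adjusted p = 0.0059, edgeR). It ranked number 21 of the 105 TE rows tested. Of TE reads, GGLTR7A held 0.0552% and 0.0833% before and 0.0622% and 0.0906% after oxidation, and these ranges overlapped.

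GGLTR7-int, the internal row, went from 81 and 143 reads to 1532 and 4733. Its CPM values were 4.51 and 9.57 against 139.5 and 336. Replicate 2 was thus 2.41-fold above replicate 1 in the oxidized and 2.12-fold in the total group. The mean went from 7.04 ± 3.58 to 238 ± 139 CPM, 33.8-fold higher, with a log2 fold change of 5.08 (SE 0.78; adjusted p = 0.0084, edgeR). Without oxidized replicate 2 the log2 fold change was 4.32, and without total replicate 2 it was 5.72. GGLTR7-int was number 41 of the 105 TE rows tested. Its share of TE reads was 0.0520% and 0.0945% before and 0.0288% and 0.0728% after oxidation, with overlap. Within each replicate number that share was lower after oxidation, although the CPM value was higher.

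**Figure D1:**
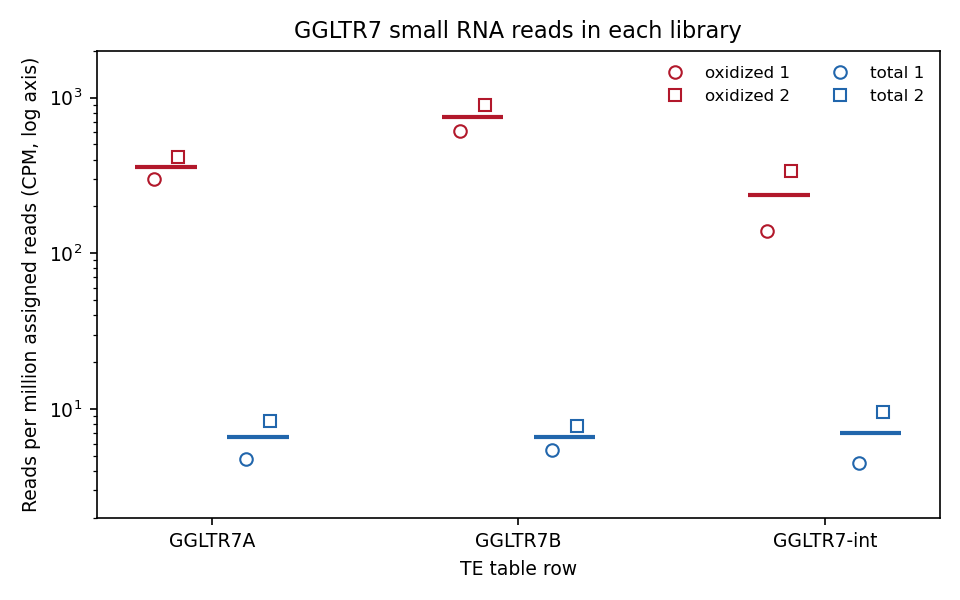
Reads of the 3 GGLTR7 rows in counts per 1000000 assigned reads (log axis), with a point for each library and a bar for the mean of 2 libraries. All rows lie between 4.51 and 9.57 CPM in the total libraries and between 139.5 and 896 CPM in the oxidized libraries.

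All 3 GGLTR7 rows were thus called higher after oxidation, where 67.6% of the TE rows tested and 15.7% of the rows of all tables were called higher. A call by itself therefore does not set GGLTR7 apart from other TEs. Its median log2 fold change was 5.77, against 5.19 for 54 tested other LTR rows, 3.93 for 102 tested other TE rows and -5.25 for all 1326 rows tested. Among the other LTR rows 43 rose and 5 fell, and among 34 tested other rows of the GGLTR series 24 rose and 5 fell, with a median of 4.29. The 7 GGLTR10 rows all rose (median 4.32), and so did the 4 rows of ENS, an LTR element transcribed in the early chick embryo (median 5.46). Of 15 GGLTR3 rows 12 rose and 2 fell (median 4.68), and the 29 tested rows of CR1, a LINE element, had a median of 3.79. Library sizes that omit miRNA shifted the log2 fold changes of all rows by a median of -1.74. GGLTR7B then stood at 5.02, GGLTR7A at 3.99 and GGLTR7-int at 3.31, all still called higher. How many other TE rows were called in that fit was not counted, so these calls do not set GGLTR7 apart.

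After oxidation GGLTR7B stood clearly above the other rows, whereas before it the order of the rows was not clear. In the total libraries the means of 6.61, 6.64 and 7.04 CPM differed by less than the spread between replicates. In the oxidized libraries GGLTR7B was above both other rows in each library, and GGLTR7A was above GGLTR7-int in each library, although the ranges of these lower rows overlapped. The ratio between rows of 1 library needs no scaling, so it compares how strongly the rows responded. GGLTR7B had 1.14 (replicate 1) and 0.929 (replicate 2) reads per GGLTR7A read before oxidation and 2.01 and 2.14 after it. Per GGLTR7-int read it had 1.21 and 0.818 reads before and 4.34 and 2.67 after oxidation. GGLTR7A had 1.06 and 0.881 reads per GGLTR7-int read before and 2.16 and 1.24 after oxidation. In all 3 pairs the oxidized values lay above the total values, but each ratio follows from the other 2, so these are not separate observations. With sense reads alone the GGLTR7B to GGLTR7A ratio overlapped, at 0.0758 and 0.151 before and 0.0760 and 0.138 after oxidation. The other pairs still rose with sense reads alone.

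On the log2 scale, with 0.5 added to each count, the ratio of GGLTR7B to GGLTR7A was 1.01 higher after oxidation, that of GGLTR7B to GGLTR7-int 1.77 higher and that of GGLTR7A to GGLTR7-int 0.76 higher. Each of the 3 pairs gave an exact two-sided permutation p of 0.333, also after Benjamini-Hochberg adjustment over the pairs, the smallest that 2 libraries against 2 can give. The difference between GGLTR7A and GGLTR7-int was the least steady, at 0.36 without oxidized replicate 1 and 1.16 without oxidized replicate 2.

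**Figure D2:**
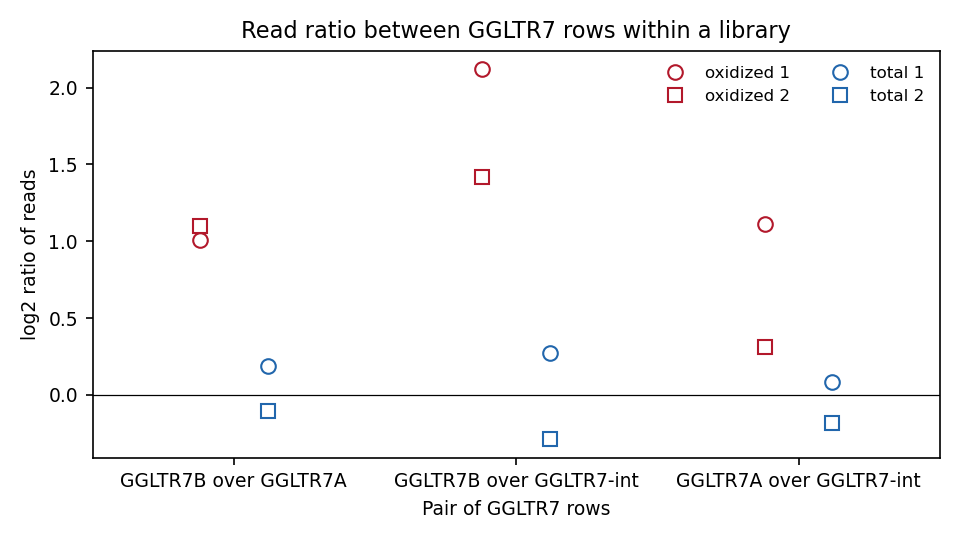
The log2 ratio of reads between GGLTR7 rows of the same library, for 3 pairs of rows and with a point for each library. The oxidized libraries lie above the total libraries in every pair, from 0.31 to 2.12 against -0.29 to 0.27.

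The rows differed most in strand. GGLTR7B reads were nearly all antisense to the element, whereas GGLTR7A and GGLTR7-int reads were mostly sense, in oxidized and total libraries alike. The deposited reverse-strand counts were read as antisense, because at most 0.00257% of tRNA reads, whose strand is known, were counted there, and sense reads are the unstranded minus the reverse counts. None of the GGLTR7 rows had more reverse than unstranded reads in any library.

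GGLTR7B had 6437 antisense and 219 sense reads in oxidized replicate 1, and 11857 and 766 in oxidized replicate 2. Before oxidation it had 93 and 103 antisense reads against 5 and 14 sense reads. The antisense share was 96.7% and 93.9% in the oxidized and 94.9% and 88.0% in the total libraries. These ranges overlapped. With every read taken as independent, the total libraries were the less precise (exact 95% binomial interval 80.7 to 93.3% in total replicate 2).

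GGLTR7A showed the opposite strand. It had 432 antisense and 2883 sense reads in oxidized replicate 1, and 329 and 5558 in oxidized replicate 2. The total libraries had 20 and 33 antisense against 66 and 93 sense reads. The antisense share of 13.0% and 5.59% after oxidation lay below that of 23.3% and 26.2% in the total libraries. Among the 63 TE rows with at least 20 reads in every library, 19.0% had a lower antisense share after oxidation with no overlap between groups and 63.5% a higher one.

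GGLTR7-int was sense as well, with 1329 and 4690 sense reads after oxidation and 63 and 130 before. Its antisense reads numbered 203 and 43 in the oxidized and 18 and 13 in the total libraries. The antisense share was 13.3% and 0.909% after oxidation and 22.2% and 9.09% before, so oxidized replicate 1 lay between the total libraries. In the deeper oxidized replicate 2 there were fewer antisense reads than in replicate 1, although the sense reads were more.

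**Figure D3:**
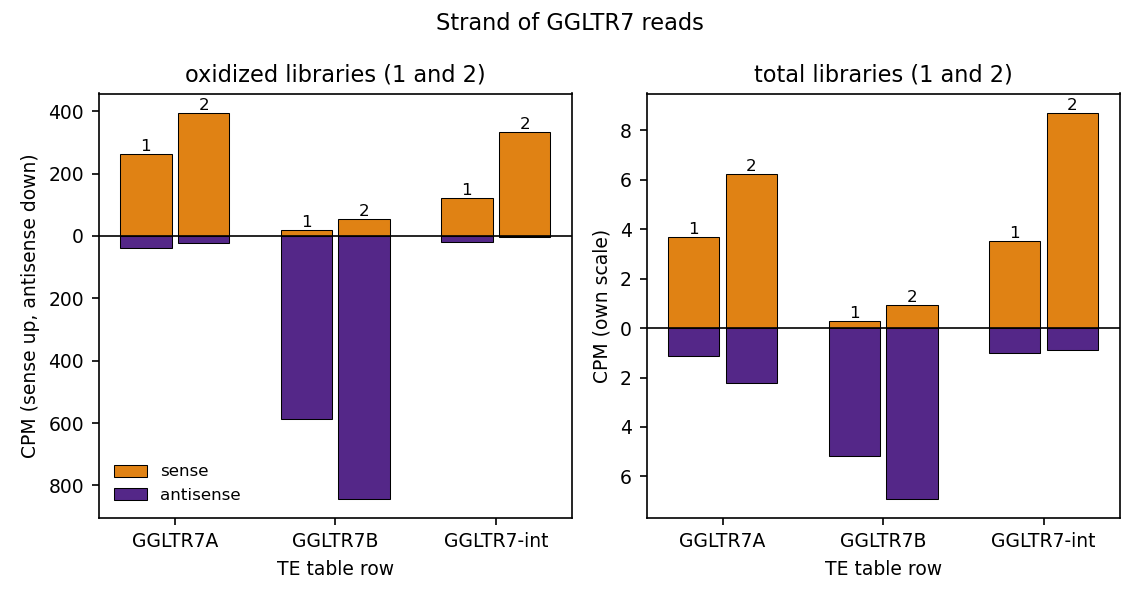
Sense (up) and antisense (down) reads of the GGLTR7 rows in counts per 1000000 assigned reads, with a bar for each library, numbered by replicate, and separate scales for oxidized and total libraries. GGLTR7B bars point down, to 586 and 842 CPM after oxidation, while those of GGLTR7A and GGLTR7-int point mostly up, to between 121 and 395 CPM.

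Over all 4 libraries the antisense share of GGLTR7B was on average 76.4 percentage points above that of GGLTR7A (61.8 to 88.3 points in single libraries) and 82.0 points above that of GGLTR7-int (72.7 to 93.0). An exact two-sided sign-flip permutation test over the 4 libraries gave p = 0.125 for each, the smallest it can give, and 0.188 after adjustment over the 3 pairs. If same-numbered libraries are portions of 1 sample there are 2 independent units, and the smallest sign-flip p is 0.5. GGLTR7A and GGLTR7-int were not separated (5.65 points on average, from -0.22 to 17.1 points in single libraries, exact p = 0.25). GGLTR7B supplied 91.0% and 97.0% of the antisense GGLTR7 reads of oxidized replicates 1 and 2. Of the sense GGLTR7 reads GGLTR7A supplied 65.1% and 50.5% and GGLTR7-int 30.0% and 42.6%. Summed over the rows, 61.5% and 52.6% of GGLTR7 reads were antisense after oxidation, so the sum hides rows of opposite strand.

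Each strand was then compared between oxidized and total libraries on its own, with the same library sizes. Antisense GGLTR7B reads rose 118-fold, from 6.03 ± 1.21 to 714 ± 181 CPM, a log2 fold change of 6.89 (SE 0.40; adjusted p = 3.6e-05, edgeR). Antisense GGLTR7A reads rose 18.9-fold, from 1.66 ± 0.774 to 31.4 ± 11.3 CPM, a log2 fold change of 4.23 (SE 0.77; adjusted p = 0.0027, edgeR). The log2 fold change was 3.82 without total replicate 1 and 4.80 without total replicate 2. Such fits leave 1 total library and cannot measure the spread within that group, so no call is read from them. Antisense GGLTR7-int reads went from 0.936 ± 0.0935 to 10.8 ± 10.9 CPM, 11.5-fold higher, an SD as large as the mean, and the log2 fold change was 3.51 (SE 1.11; adjusted p = 0.026, edgeR). For GGLTR7-int the log2 fold change was 1.69 without oxidized replicate 1 and 4.29 without oxidized replicate 2. It was 3.62 without total replicate 1 and 3.41 without total replicate 2, and again no call is read from these fits. The row no longer passed with library sizes that omit miRNA (edgeR adjusted p = 0.19). Nor did it pass with the replicate number as a block (log2 fold change 3.01, edgeR adjusted p = 0.14). All 3 rows were called higher on this strand, beside 76.5% of the TE rows tested there. With TMM factors, which shift the reverse-strand rows by a median of -4.36, only GGLTR7B stayed higher among the 3, at a log2 fold change of 2.46 (1.81 with DESeq2), and the antisense reads of GGLTR7A (-0.16) and GGLTR7-int (-0.81) had log2 fold changes below 0.

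Sense GGLTR7A reads rose 66.4-fold, from 4.95 ± 1.80 to 329 ± 93.4 CPM, a log2 fold change of 6.05 (SE 0.54; adjusted p = 0.0062, edgeR). It was number 6 of 80 TE rows tested on the sense strand, against number 49 of 85 on the antisense strand. Sense GGLTR7-int reads rose 37.2-fold, from 6.10 ± 3.67 to 227 ± 149.9 CPM, a log2 fold change of 5.22 (SE 0.91; adjusted p = 0.011, edgeR). That log2 fold change was 4.32 without oxidized replicate 2 and 6.01 without total replicate 2. The few sense reads of GGLTR7B rose 61.2-fold, from 0.608 ± 0.466 to 37.2 ± 24.4 CPM, a log2 fold change of 5.92 (SE 1.13; adjusted p = 0.013, edgeR). Their log2 fold change ran from 5.06 without oxidized replicate 2 to 7.02 without total replicate 2, and was 5.30 without total replicate 1. With 5 and 14 sense reads in the total libraries, GGLTR7B met the expression filter on this strand only through the oxidized libraries, where it is high. Its call there is therefore not separate support for a rise. On the sense strand all 3 rows were called higher, GGLTR7B with that limit, beside 67.5% of the TE rows tested there. The other LTR rows had a median log2 fold change of 4.72 on the sense strand (32 of 41 tested rose) and 5.32 on the antisense strand (37 of 46 tested rose). For GGLTR7 these medians were 5.92 and 4.23, over 3 rows of opposite strand. The sense median is the value of the mostly antisense GGLTR7B, with 5 and 14 sense reads in the total libraries. The antisense median is that of the mostly sense GGLTR7A.

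Whether oxidation changed the antisense share itself was tested over 63 TE rows, with a term for each library. None of the 3 GGLTR7 rows passed (edgeR quasi-likelihood test), and only GGLTR7A had an unadjusted p under 0.05 (adjusted p = 0.088, edgeR). Of the TE rows tested 31.7% were called more antisense and 4.76% less antisense after oxidation. For GGLTR7A the log2 change of the antisense to sense ratio was -1.81 (SE 0.62). It was -2.16 (SE 1.86, adjusted p = 0.38) for GGLTR7-int and 0.95 (SE 0.70, adjusted p = 0.32) for GGLTR7B. These values moved with single libraries of both groups. Without oxidized replicate 1 the log2 change was -2.49 for GGLTR7A, -4.19 for GGLTR7-int and 0.59 for GGLTR7B. Without oxidized replicate 2 it was -1.15 for GGLTR7A, -0.13 for GGLTR7-int and 1.51 for GGLTR7B. Without total replicate 1 or 2 it was 1.55 or 0.24 for GGLTR7B, -1.41 or -2.92 for GGLTR7-int and -1.92 or -1.69 for GGLTR7A. Such fits leave 1 library in a group and cannot measure the spread within it, so no call is read from them. By exact permutation over libraries no row could fall below p = 0.333.

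Copies made by PCR inflate read counts, so the oxidized reads were also expressed as estimated molecules. Gene rows seen in a single oxidized library, with 20 or more reads there, had a median of 122 reads in replicate 1 and of 130.5 in replicate 2. If that is what 1 molecule yields, which was not tested, the medians put GGLTR7B at about 55 and 97 molecules, GGLTR7A at 27 and 45 and GGLTR7-int at 13 and 36. The antisense reads of GGLTR7A would then be 4 and 3 molecules and those of GGLTR7-int 2 and 0, so antisense values of these rows rest on very little. Both strands of a library were divided by the same median, so the antisense share could change only by rounding. The count is thus no check of strand against PCR copies, and only its intervals are wider. As exact 95% binomial intervals the antisense share was 87.5 to 99.6% and 87.0 to 97.7% for GGLTR7B, 4.03 to 32.7% and 1.37 to 17.9% for GGLTR7A. For GGLTR7-int the intervals were 1.92 to 45.4% and 0 to 9.74%. All 3 rows were still called higher after oxidation. That is no check of the rise against PCR copies, because the oxidized library sizes were divided by the same medians as the counts. GGLTR7A was then called less antisense (log2 change -1.61, edgeR adjusted p = 0.043), on those 4 and 3 antisense molecules. The main fit did not call it (adjusted p = 0.088, edgeR). How many other TE rows were called in the molecule fit was not counted, so this call does not set GGLTR7A apart.

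Mostly sense reads after oxidation were found in a minority of TE rows, in GGLTR7 and in other elements. GGLTR7A and GGLTR7-int were under 50% antisense in both oxidized libraries, as were 20.6% of the 63 TE rows with at least 20 reads in every library. By mean antisense share after oxidation GGLTR7-int was number 6 and GGLTR7A number 7 from the lowest of these 63 rows, and GGLTR7B was number 39. The other 32 LTR rows had a median share of 89.8% after oxidation and 79.6% before, with 8 under 50% in both oxidized libraries. Among them were GGLTR10C2, GGLTR10C-int and GGLTR10D-int, the 3 GGLTR10 rows with enough reads, GGLTR3F1 and ENS1-int.

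**Figure D4:**
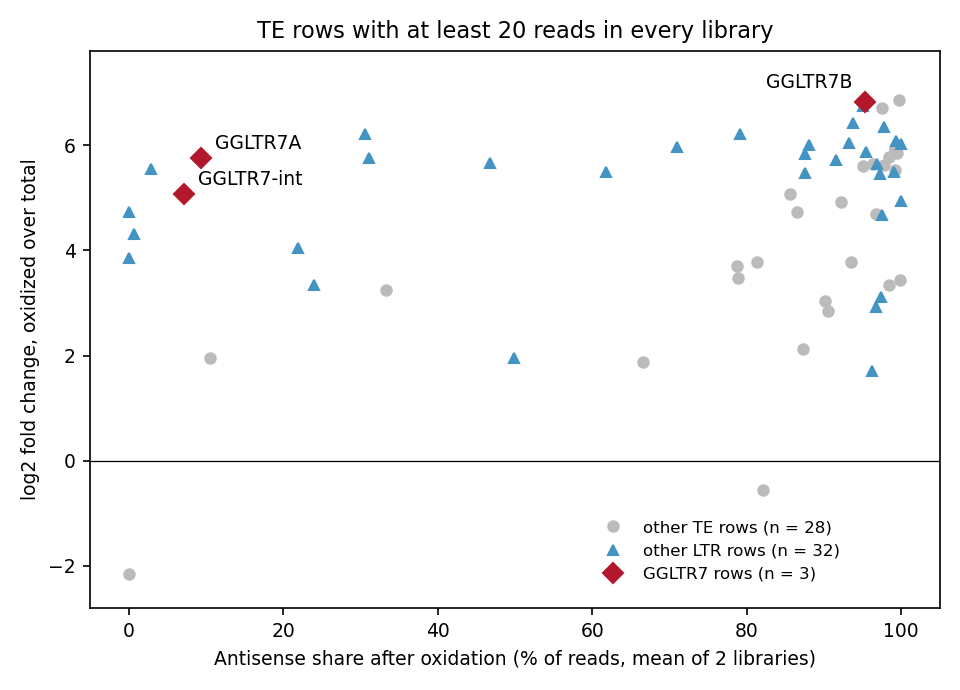
The antisense share after oxidation (percent of reads, mean of 2 libraries) against the log2 fold change of oxidized over total libraries, for 3 GGLTR7 rows, 32 other LTR rows and 28 other TE rows with at least 20 reads in every library. GGLTR7B (95.3%, 6.82) lies in the upper right among many rows, and GGLTR7A (9.31%, 5.77) and GGLTR7-int (7.08%, 5.08) lie in the upper left among few.

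LTR and internal rows of other elements, matched by name alone, gave a frame for the contrast inside GGLTR7. Of 7 other such pairs with both rows tested, some sharing an internal row, the LTR row had the higher log2 fold change in 6, and the difference ranged from -0.21 to 2.49. GGLTR7B minus GGLTR7-int was 1.74 and GGLTR7A minus GGLTR7-int 0.69, both inside that range. In strand, GGLTR7B and GGLTR7-int were 88.2 percentage points apart after oxidation. The 4 other pairs with at least 20 reads in every library ran from -3.82 to 63.6 points. Pairs with fewer reads in a library included GGLTR10D with GGLTR10D-int (66.5 points), GGLTR10C1 with GGLTR10C-int (26.1) and GGERV28_LTR with GGERV28_I-int (4.80). ENS1-LTR was 92.4% and 82.8% antisense and ENS1-int 32.6% and 15.3%, a split of the same direction, whereas GGERVL18-LTR (94.7% and 96.3%) and GGERVL18-int (99.4% and 99.2%) were both antisense. GGLTR10C2 (30.4% and 13.4%) and GGLTR10C-int (0% in both) were both mostly sense, as were GGLTR7A and GGLTR7-int. These differences between pairs were not tested.

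**Figure D5:**
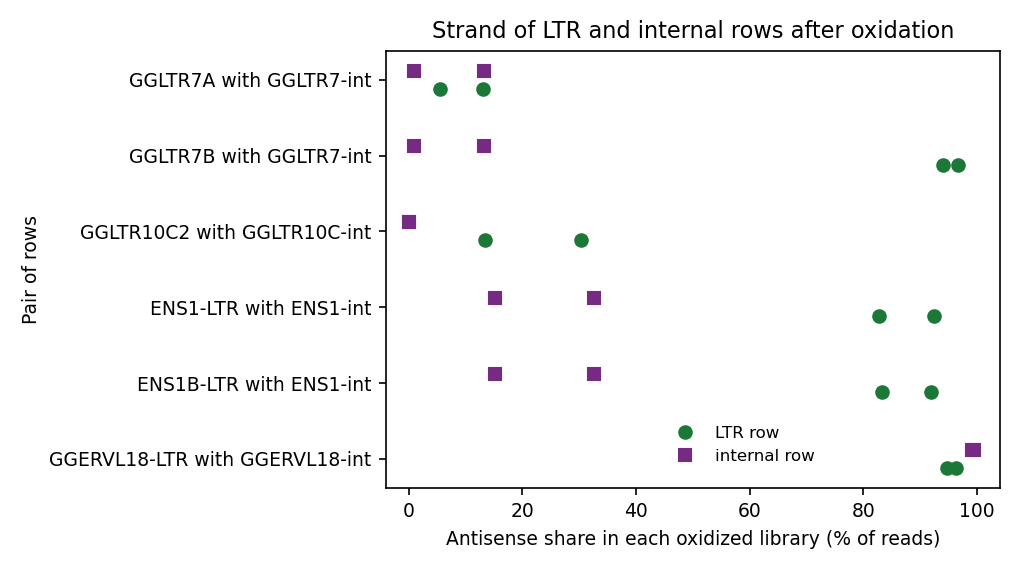
Antisense share in each oxidized library (percent of reads) of LTR rows (circles) and internal rows (squares), for pairs matched by name with at least 20 reads in every library. GGLTR7B (96.7% and 93.9%) and GGLTR7-int (13.3% and 0.909%) lie at opposite ends, while GGLTR7A (13.0% and 5.59%) lies beside GGLTR7-int.

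Among TE rows other than GGLTR7, those most like each GGLTR7 row in level over the 4 libraries included rows of the same and of the other strand. Likeness was the Euclidean distance of log2(CPM + 1), and the GGLTR7 rows were left out of the ranking. Nearest to GGLTR7A were GGLTR12B (distance 0.37), EAVHP_I-int (0.84) and GGLTR3E1 (1.18), which were 70.9%, 2.78% and 97.5% antisense after oxidation. GGLTR7-int was nearest to EAVHP_I-int (1.09), GGLTR10D-int (1.16) and GGLTR3E1 (1.17), the internal rows among them being mostly sense like GGLTR7-int itself (GGLTR10D-int 0.616% antisense). Nearest to GGLTR7B, though less close, were GGERVK1-int (1.16), GGLTR12B (1.64) and CR1-F0 (1.70). Of these GGERVK1-int was mostly sense (31.0% antisense), whereas GGLTR12B (70.9%) and CR1-F0 (85.6%) were mostly antisense like GGLTR7B.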

How the data were processed

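The 48 deposited files hold raw, whole-number counts, 1 column each: for every library 6 tables (rRNA, tRNA, miRNA, TE, remaining repeats, remaining genes), counted unstranded and on the reverse strand. The submitters' processing notes name featureCounts and galGal6. The aligner, annotation and handling of multimapping reads are not given in the sources used here, so the split of reads between GGLTR7A, GGLTR7B, GGLTR7-int and similar elements is uncertain.

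A single model over the rows of all 6 tables was fitted in R 4.3.3 with edgeR 4.0.16 (quasi-likelihood functions glmQLFit, glmQLFTest; default expression filter, no scaling factor, Benjamini-Hochberg adjustment over all rows tested, threshold 0.05). The unstranded fit tested 1326 rows, the reverse-strand fit 210 and the sense fit 1193, all with library sizes from the unstranded tables. A standard error is the log2 fold change divided by the square root of F. Each fold is a ratio of group mean CPM values. The antisense share was fitted over TE rows with at least 20 reads in every library, by a strand by oxidation term. Fits were also run on simulated counts, in which fewer rows changed and antisense shares were less extreme than here, so no result rests on them. Single values were compared by exact permutation (numpy 2.4.6, scipy 1.17.1), the sign-flip test having been added after the data were seen. Binomial intervals are exact and, for reads, cover counting error alone.

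Alternatives were TMM factors, DESeq2 1.42.0, no filter, other library sizes, the replicate number as a block, leaving out each library and counting oxidized reads as molecules. The members, lists and tests were chosen with earlier results of these data known. Named rows are every GGLTR7 row, the 3 nearest TE rows of each by level and rows of the comparison lists, those cited in the text for strand having been picked after their values were seen. The tissue could not be checked against marker genes, since 0 of 24356 Ensembl IDs matched a name in the RefSeq table at hand (GRCg7b).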

Additional observations from a re-analysis of the deposited data

How the results depend on the processing

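With unstranded reads all 3 GGLTR7 rows were called higher under TMM factors, DESeq2, no filter and library sizes without miRNA or without tRNA and rRNA. They were also called higher with the replicate block and counted as molecules. How many other TE rows were called in each alternative fit of this section, on either strand or for the antisense share, was not counted. The molecule setting divides oxidized counts and oxidized library sizes alike, so it hardly moves the fold changes. With each library left out the log2 fold changes stayed above 0. On the reverse strand 3 rows were called higher, but 1 with TMM factors and 1 with DESeq2. With a library left out a lone library is assumed to vary as the other group does, so no call is read from those fits. The log2 fold changes of antisense reads turned to -0.16 (TMM) and -0.74 (DESeq2) for GGLTR7A and to -0.81 and -1.44 for GGLTR7-int. These factors shift all reverse-strand rows by a median of -4.36 and -5.03. The antisense share had 0 called rows, and 1 counted as molecules, the cause of which was not tested. With a library left out its log2 changes moved, and a lone library is again assumed to vary as the other group does. The log2 ratio of GGLTR7B to GGLTR7A was 1.01 higher after oxidation, but -0.14 with sense reads alone, a setting chosen after the data were seen.

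The labels do not tie same-numbered oxidized and total libraries to 1 sample, and the deviations of same-numbered libraries correlated at 0.055 over 1326 rows and at 0.231 over 63 TE rows with at least 20 reads in every library. With 2 pairs this does not settle whether the numbers pair the libraries. With the replicate block 3 rows stayed higher with unstranded reads (log2 fold changes 6.82, 5.80 and 5.04 for GGLTR7B, GGLTR7A and GGLTR7-int), 3 with sense reads and 2 on the reverse strand, where GGLTR7-int was not called (3.01, edgeR adjusted p = 0.14). The total libraries held 81 to 143 reads a row. The oxidized libraries held an estimated 13 to 97 molecules a row, so on that estimate both groups limit precision.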
